A study of Rattus norvegicus with 23 samples.

Results

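The miR-132 and miR-212 cluster was followed across muscle-derived stem cells (MDSC) of the rat. The members were all entries of the deposited count tables named miR-132 or miR-212, with either arm of the hairpin. These were 4 of 792 entries, namely rno-miR-132-3p, rno-miR-132-5p, rno-miR-212-3p and rno-miR-212-5p, written below without the rat prefix, and all 4 had reads. A library here is the small RNA of 1 culture, and 23 libraries were sequenced. Of these 14 came from female and 9 from male cells.

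ED-MDSC and LD-MDSC came from male Zucker Fatty (ZF) rats, a strain with the Lepr fa mutation of the leptin receptor, and the labels place them in early and late diabetes. Their donors were 12 and 32 weeks old. ND-MDSC came from male rats labelled as non-diabetic, whose age is not given in the sources used here. ZF4-SC and ZL4-SC came from the pelvic floor muscle of 12-week-old female rats, of the obese ZF strain for ZF4-SC and of its lean Zucker (ZL) counterpart for ZL4-SC. Cells were kept without addition (C), or with 5% serum of obese rats (OZ serum) or of lean rats (LZ serum). For the female cells these are the sera of female ZF and ZL rats, 24 weeks old in the paper's abstract, although it gives other ages elsewhere. For ED-MDSC the paper describes sera of 32-week-old male rats in its wound assay. The labels name all sera only as OZ or LZ, and the serum donors for ND-MDSC are not given. Serum effects in ED-MDSC and in the female cells may thus come from different sera. Other cultures received palmitate with albumin as its carrier control, or water-soluble cholesterol with cyclodextrin as its carrier control. ED-MDSC had 6 libraries (C, both sera, albumin, cyclodextrin and cholesterol), LD-MDSC had 1 (C), ND-MDSC had 2 (C and OZ serum), ZF4-SC had 11 and ZL4-SC had 3 (C and both sera). The agents were left on the cells for 4 days. The paper describes a culture medium with fetal bovine serum for the female cells and does not give that of the male cells. Below, with or without serum refers to added rat serum only. The male cells came from a limb muscle and the female cells from a pelvic one, with different surface markers used to select them. Each stem cell type stands for the donors of 1 isolation. Only ZF4-SC C and ZF4-SC with cyclodextrin had 2 libraries, and nothing in the labels says that these were separate cultures. The p-values below measure the spread between stem cells in the serum tests, between cultures with different agents in the test within ED-MDSC, between untreated stem cells in the test of female against male cells, and between doses or libraries of 1 label in the lipid tests. Nothing in the labels says that libraries of 1 label were separate cultures, so that spread may be technical. The p-values of the interaction test, which pools the sera, also measure the spread between OZ and LZ serum within a stem cell.

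The libraries were deposited in 3 count tables, 1 for each prefix of the sample names, and whether the tables were also separate sequencing runs is not given in the sources used here. A male table held ED-MDSC and LD-MDSC, with 1701574 to 3840523 reads per library. A serum table held ND-MDSC and the female cells with or without serum, with 6492161 to 13271580 reads. A lipid table held 8 ZF4-SC libraries with 104902 to 4783062 reads, the fewest with palmitate at 1 mM. Outside the pair of ED-MDSC and LD-MDSC, a comparison with ED-MDSC is therefore also one between tables. The ED-MDSC libraries with serum stood apart from the other ED-MDSC libraries. Over 153 miRs, their Spearman correlations with the ED-MDSC libraries without serum were 0.878 to 0.911, against 0.986 to 0.996 among those without serum, and the pair with serum correlated at 0.981. Markers of mature striated muscle were near 0, with miR-133a-3p at 0 in all 23 libraries and at most 4 reads of miR-1-3p. The summed level of 4 mesenchymal miRs (miR-143-3p, miR-145-5p, miR-199a-5p and miR-214-3p) was at least 64961 reads per 1000000 miR reads (RPM). The summed level of 6 neuronal miRs was 463 to 694 RPM in ED-MDSC with serum, 104 to 133 in ED-MDSC without it and 68.6 to 312 in the other libraries. Of these 6, miR-124-3p was at 0 in 21 of the 23 libraries, miR-219a-5p in 7, miR-138-5p in 4, miR-9a-5p in 3, miR-129-5p in 2 and miR-128-3p in 0.

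In the rat the 2 hairpins lie side by side on chromosome 10 and are known to be cut from a shared primary transcript. In rat neurons that transcript is induced by CREB, the transcription factor that answers cyclic AMP, growth factors and electrical activity. REST, a repressor of neuronal genes, is known to act on it in the opposite direction. The 3p arms repress FoxO3, a regulator of autophagy and atrophy, in mouse heart muscle, and RASA1, a brake on Ras, in human endothelium.

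The mature sequences are shown because they decide which members share a seed and how far their reads could be told apart. All 4 members matched the RefSeq table of assembly GRCr8, on the plus strand. Capitals mark the seed, bases 2 to 8, with which a miR pairs to its targets.
miR-132-3p: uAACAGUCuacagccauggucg
miR-212-3p: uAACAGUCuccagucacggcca
miR-132-5p: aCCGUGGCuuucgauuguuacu
miR-212-5p: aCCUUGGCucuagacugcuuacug
The 3p arms carry the same seed, AACAGUC, and they are the only 2 of 693 mature rat miRs in the table that do. Counted from the 5′ end, miR-212-3p differs from miR-132-3p by A10C, C14U, U17C, U20C and G22A, so that 17 of 22 positions are identical. The first difference is thus at base 10, and how reads with several matches were treated is not stated in the sources used here. The 5p arms have different seeds, and 14 of 22 positions are identical.

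In that assembly miR-212-5p lies at chr10:60521771-60521794 and miR-212-3p at chr10:60521811-60521832. The miR-132 arms follow at chr10:60522055-60522076 for miR-132-5p and chr10:60522091-60522112 for miR-132-3p. Only 222 bases lie between miR-212-3p and miR-132-5p. Below is the hairpin of miR-132, at chr10:60522033-60522133, with both mature arms in capitals, because the ratio of its arms is one of the measurements below.
Mir132 hairpin: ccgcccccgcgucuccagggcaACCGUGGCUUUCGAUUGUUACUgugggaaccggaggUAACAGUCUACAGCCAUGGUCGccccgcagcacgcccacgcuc

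Most reads of the cluster came from a single arm. Over all libraries, miR-212-5p took 83.0% of the members' reads (51939 reads), miR-132-3p 10.8% (6752), miR-212-3p 4.87% (3047) and miR-132-5p 1.38% (863). Levels are given in RPM, reads per 1000000 reads assigned to miRs in the library. The level of miR-212-5p was 59.3 RPM at its lowest, 343 at the median and 1934 at its highest, a 32.6-fold range. For miR-132-3p these values were 5.57, 38.6 and 388 RPM, a 69.7-fold range. The lowest, median and highest levels were 0, 13.4 and 147 RPM for miR-212-3p, and 0, 5.40 and 42.9 RPM for miR-132-5p. Reads were 0 for miR-212-3p in 1 library and for miR-132-5p in 2, all of them in the lipid table. By level, miR-212-5p stood between place 41 and place 134 within a library, counted from the most abundant miR.

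**Figure D1:**
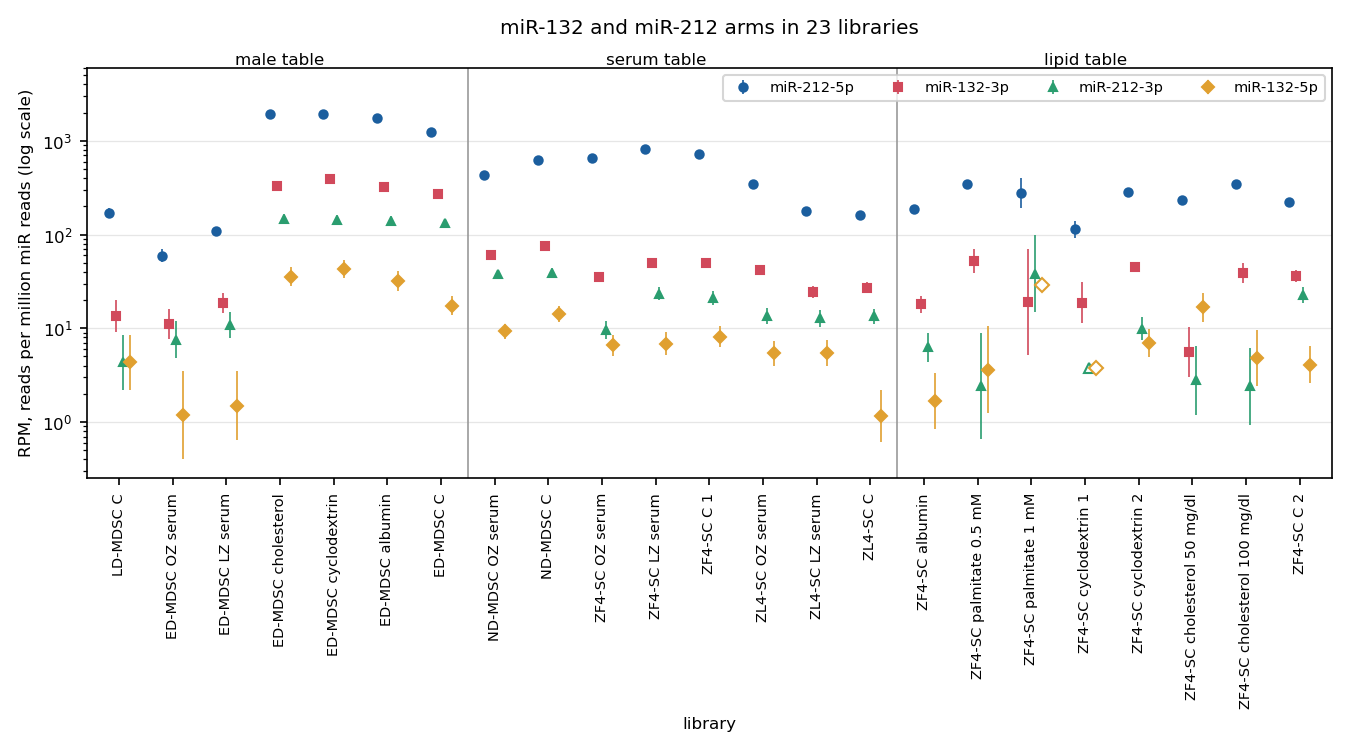
RPM (log scale) of the 4 arms in each of the 23 libraries, with Wilson 95% intervals that cover counting error only. Open symbols mark 0 reads and are drawn at the level of 3 reads. The 4 ED-MDSC libraries without serum hold the highest levels of every arm, and the ED-MDSC libraries with serum lie far below them.

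ED-MDSC cultured without rat serum held the 4 highest levels of every arm, and with OZ or LZ serum these cells had levels 11.4 to 24.5 times lower than in C. miR-132-3p was at 11.1 RPM in ED-MDSC with OZ serum (28 reads) and at 18.6 with LZ serum (62 reads). Without serum it was at 331 with cholesterol, 388 with cyclodextrin, 321 with albumin and 274 in C (1051 reads). Both serum libraries were thus far below all 4 libraries without serum. In bulk cultures such as these, fewer cells with the cluster and less of it per cell cannot be told apart.

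miR-212-5p showed the same separation. It was at 59.3 RPM with OZ serum and 110 with LZ serum (149 and 366 reads), against 1934 with cholesterol, 1912 with cyclodextrin, 1732 with albumin and 1256 in C. miR-212-3p, the partner arm on the miR-212 hairpin, was at 7.56 with OZ serum and 10.8 with LZ serum, against 147, 142, 140 and 133 RPM in cholesterol, cyclodextrin, albumin and C. The sparse miR-132-5p was at 1.19 and 1.5 RPM with OZ and LZ serum (3 and 5 reads). It was at 35.5, 42.9, 32.1 and 17.4 RPM in the same 4 libraries without serum. How many of all miRs separate in this way was not counted. In the test of libraries with against without serum given below, 27.7% of 271 miRs passed as lower.

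As ratios of single libraries, OZ serum over C in ED-MDSC was 0.0407 for miR-132-3p (exact 95% interval 0.0269 to 0.0592), 0.0472 for miR-212-5p (0.0399 to 0.0556), 0.0567 for miR-212-3p (0.0339 to 0.0895) and 0.0685 for miR-132-5p (0.0138 to 0.209). These are levels 14.6 to 24.5 times lower with the serum, and the intervals of the 4 arms overlap. LZ serum over C was 0.0679 for miR-132-3p (0.0517 to 0.0878), 0.0874 for miR-212-5p (0.0784 to 0.0972), 0.0810 for miR-212-3p and 0.0859 for miR-132-5p. The intervals cover counting error only, and with 1 library per condition these ratios have no replicate check. Scaling by TMM effective sizes, a method that allows for a few miRs taking a large share of reads, shifted all ratios of this pair by -0.67 on the log2 scale for OZ serum and by -0.49 for LZ serum. The members then had ratios of 0.0256 to 0.0430 and of 0.0484 to 0.0622.

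These ratios were at the end of the distribution. Where the 2 libraries averaged 100 reads or more per miR, which left 154 miRs in the OZ serum pair, 50.6% differed beyond 2-fold and 14.3% were lower by that much. miR-132-3p, miR-212-5p and miR-212-3p held the 3 lowest ratios, in that order. The median log2 ratio over all miRs of the pair was 0.63. In the LZ serum pair 47.4% of 156 miRs were beyond 2-fold, 14.1% lower, and the same arms held places 2, 5 and 4 from the bottom. The lowest place there belonged to miR-146a-5p, a miR induced by NF-kB. miR-132-5p had a mean under 100 reads in both pairs and was not ranked.

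**Figure D2:**
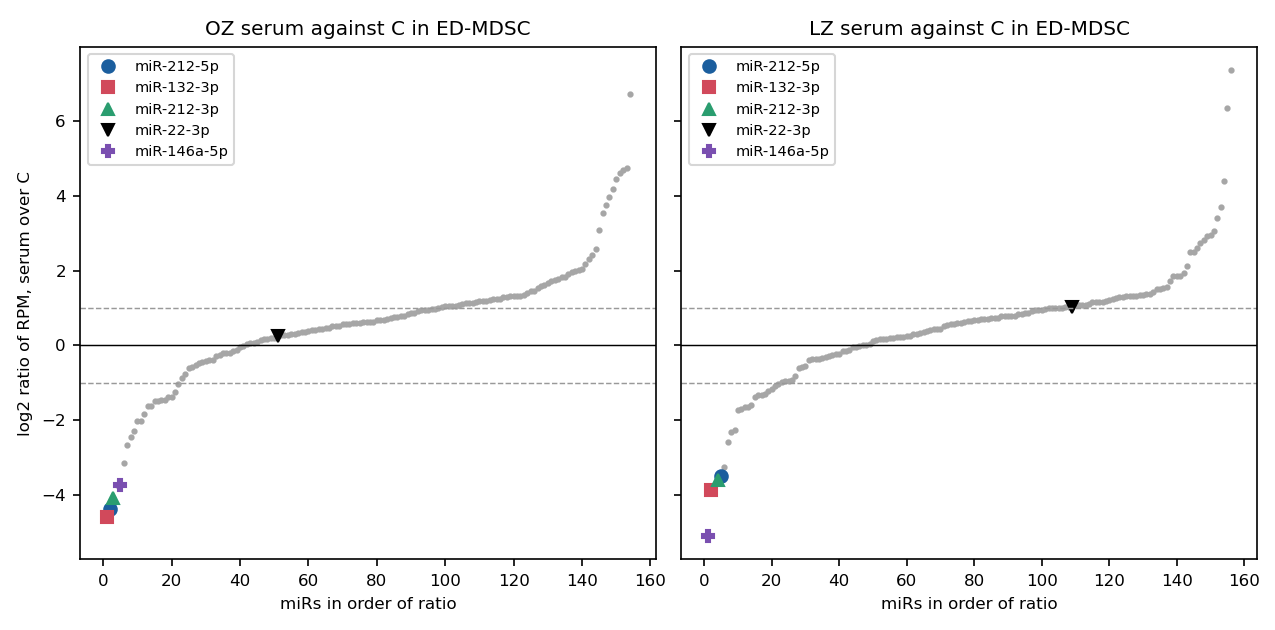
Log2 ratios of RPM in ED-MDSC, serum over C, for every miR that averaged 100 reads or more, in order of ratio. Dashed lines mark 2-fold. With OZ serum (left) miR-132-3p, miR-212-5p and miR-212-3p are the 3 lowest points, and miR-22-3p from the same chromosome lies above 0 in both panels.

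Between the sera, all 4 arms were lower with OZ than with LZ serum in ED-MDSC, with ratios of 0.541 (0.444 to 0.656) for miR-212-5p and 0.600 (0.369 to 0.951) for miR-132-3p. For miR-212-3p and miR-132-5p the ratios were 0.701 (0.380 to 1.25) and 0.797 (0.124 to 4.10), and their intervals included 1. None was beyond 2-fold, as 9.38% of 160 miRs were, although miR-212-5p was at 0.488 with TMM.

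The 2 serum libraries of ED-MDSC were set against its 4 libraries without serum in edgeR, a comparison that was chosen after the values had been seen. It treats different agents as replicates of a group. miR-132-3p, miR-212-5p and miR-212-3p fell, as did 27.7% of the 271 miRs tested, while 51.7% changed in either direction. The log2 fold changes were -4.92 ± 0.27 (SE) for miR-132-3p, -4.80 ± 0.32 for miR-212-5p and -4.40 ± 0.24 for miR-212-3p, beside a median of -0.06 over all miRs tested. By edgeR's quasi-likelihood test with Benjamini-Hochberg adjustment, adjusted p was 1.0e-05, 1.4e-05 and 1.0e-05 in that order. miR-132-5p passed the filter of a mean of 10 reads only through the libraries without serum, so its value of -4.94 ± 0.46 is given as a description.

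In the other 3 stem cells the ratios lay nearer to 1, a difference whose test is given after their values. In ND-MDSC, with OZ serum against C, miR-212-5p was at 433 and 623 RPM, miR-132-3p at 60.1 and 76.1, miR-212-3p at 37.7 and 39.0, and miR-132-5p at 9.27 and 14.2. The ratios of 0.652 to 0.967 stayed within 2-fold, beyond which 15.4% of 169 miRs lay, and TMM scaling turned miR-212-3p to 1.09.

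In ZF4-SC, 3 of the 4 arms were within 2-fold of C with either serum. miR-212-5p was at 660 RPM with OZ serum, 811 with LZ serum and 721 in C of the same table, and miR-132-3p was at 35.7, 49.9 and 49.9. The ratio of OZ serum over C was 0.915 (0.880 to 0.952) for miR-212-5p and 0.714 (0.608 to 0.839) for miR-132-3p, and under TMM scaling these were 1.22 and 0.955. The direction of miR-212-5p thus depended on the scaling, as did that of miR-132-5p (0.805, and 1.08 with TMM). miR-212-3p was the only arm beyond 2-fold, at 9.61 RPM with OZ serum (79 reads) and 20.9 in C (136 reads), a ratio of 0.459 (0.343 to 0.610). With TMM it was at 0.613, and 22.8% of 158 miRs were beyond 2-fold in this pair. LZ serum over C lay between 0.841 and 1.13 for the 4 arms, where 2.44% of 164 miRs were beyond 2-fold.

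In ZL4-SC the more abundant arms were higher with OZ serum. miR-212-5p was at 345 RPM with OZ serum, 180 with LZ serum and 163 in C, and miR-132-3p was at 42.3, 24.3 and 27.0. The ratio of OZ serum over C was 2.12 (1.98 to 2.27) for miR-212-5p and 1.57 (1.31 to 1.87) for miR-132-3p, and with TMM it was 1.68 and 1.24. miR-212-3p was at 13.6, 12.8 and 13.4 RPM in the same order, with a ratio of 1.02 (0.765 to 1.35), and TMM scaling put it at 0.805. miR-132-5p was at 5.38 and 5.40 RPM with OZ and LZ serum (40 and 38 reads) against 1.17 in C (9 reads). Its ratios of 4.61 (2.20 to 10.8) and 4.62 (2.20 to 10.9) rest on those 9 reads. In this stem cell 20.7% of 150 miRs were beyond 2-fold with OZ serum and 2.1% of 143 with LZ serum.

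**Figure D3:**
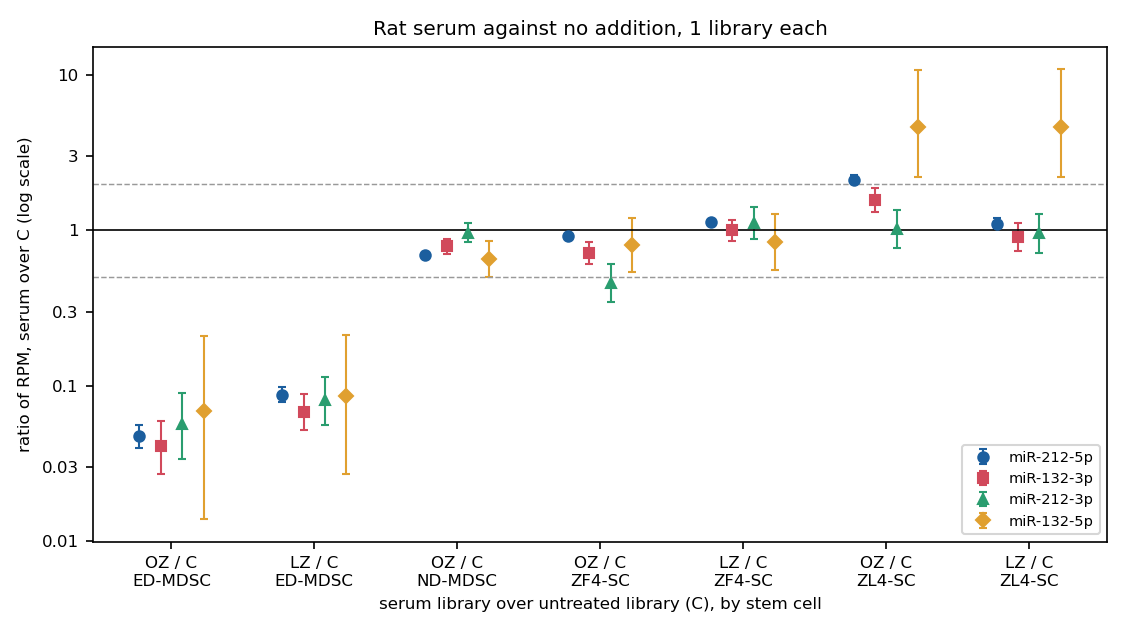
Ratio of RPM with serum over C (log scale) for each arm in 4 stem cell types, with exact 95% intervals that cover counting error. The solid line marks a ratio of 1 and dashed lines mark 2-fold. In ED-MDSC all 4 arms lie between 0.0407 and 0.0874, and in the other stem cells no arm lies below 0.459.

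The difference between ED-MDSC and the other stem cells was itself tested, also after the values had been seen. An interaction of rat serum with ED-MDSC was fitted over 11 libraries, with the stem cell as a block. OZ and LZ serum were pooled as rat serum, so ED-MDSC entered with both sera against a lone library of C. The log2 difference of the serum effect, ED-MDSC minus the other 3 stem cell types, was -4.67 ± 0.51 (SE) for miR-132-3p (edgeR, adjusted p = 0.0012). It was -4.55 ± 0.53 for miR-212-5p (edgeR, adjusted p = 0.0012), -4.23 ± 0.57 for miR-212-3p (edgeR, adjusted p = 0.0020) and -4.57 ± 0.92 for miR-132-5p (edgeR, adjusted p = 0.024). Of 300 miRs tested, 8.33% passed in either direction and 7.33% were lower in ED-MDSC. The log2 difference of miR-132-5p was -4.79 without the ED-MDSC library with LZ serum (edgeR, adjusted p = 0.074), -4.38 without that with OZ serum (edgeR, adjusted p = 0.10) and -3.96 with library totals in place of TMM (edgeR, adjusted p = 0.084), so that its call was lost in each. Of the stem cells in the fit only ED-MDSC belonged to the male table, so the interaction cannot be told apart from a difference between tables. Nor can it be told apart from a difference between serum donors.

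In the comparisons that take stem cells as replicates, no member passed. OZ serum against C over ED-MDSC, ND-MDSC, ZF4-SC and ZL4-SC gave log2 fold changes of -0.93 ± 0.90 (SE) for miR-132-3p, -0.73 ± 0.90 for miR-212-5p, -1.20 ± 0.82 for miR-212-3p and -0.49 ± 0.91 for miR-132-5p. The adjusted p of edgeR was 0.82 to 0.99, and 0% of 300 miRs passed. Without ED-MDSC the values were 0.20 for miR-132-3p, 0.41 for miR-212-5p and 0.59 for miR-132-5p, so their direction depended on ED-MDSC. LZ serum against C gave -1.43 ± 1.06 for miR-132-3p, -1.17 ± 1.02 for miR-212-5p, -1.29 ± 1.03 for miR-212-3p and -0.68 ± 1.29 for miR-132-5p, with 0% of 295 miRs past the threshold. Without ED-MDSC these were -0.26, -0.03, -0.13 and 0.53. OZ against LZ serum gave 0.02 ± 0.48 for miR-132-3p, 0.07 ± 0.39 for miR-212-5p, -0.43 ± 0.47 for miR-212-3p and 0.11 ± 0.60 for miR-132-5p, where 0.341% of 293 miRs passed. Without ED-MDSC the values were 0.51, 0.68, -0.24 and 0.33. Over all 8 planned tests, 0 of 32 member values passed in edgeR, 0 had an unadjusted p under 0.05 (the smallest was 0.18), and 0 passed in DESeq2.

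Markers of other cell types moved with the serum in ED-MDSC as well. A list of 8 blood-cell miRs was among them. Its summed level was 3620 to 9961 RPM with serum and 365 to 1927 without, and it spanned 20.05 to 45722 in the other stem cells. miR-451-5p, the red-cell miR, had 9751 and 3705 reads with OZ and LZ serum and 606 in C, a log2 fold change over the 6 libraries of 2.77 (edgeR, adjusted p = 0.012). miR-223-3p and miR-150-5p passed the filter only through the serum libraries. Of the 6 neuronal miRs, 3 of 3 tested members rose (edgeR), namely miR-9a-5p, miR-129-5p and miR-128-3p, where 65 of 271 miRs rose. miR-9a-5p had 178 and 434 reads in OZ and LZ serum against 23 in C. The other members of the list were not tested. miR-138-5p had 10 and 4 reads with OZ and LZ serum and 8 in C. miR-219a-5p had 7 and 10 reads against 11 in C, and miR-124-3p was at 0 in all 6 libraries. Liver miR-122-5p had 70 and 45 reads with OZ and LZ serum and 2 in C. Of the 4 mesenchymal miRs, miR-199a-5p and miR-214-3p fell, with log2 fold changes of -2.48 and -3.29 (edgeR), and miR-143-3p and miR-145-5p did not pass, at -0.08 and -0.40. Endothelial miRs summed to 207 to 386 RPM with serum and 104 to 168 without, and miR-126a-3p, 1 of the 2, rose (edgeR). Epithelial miRs summed to 5.70 to 7.17 RPM with serum and 4.69 to 9.18 without. The part of these shifts in the fall of the cluster was not tested.

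Neighbours on the chromosome were compared next. Within 1 Mb the RefSeq table holds only the hairpins of miR-22 and miR-6326, and miR-6326 was at 0 in all libraries. miR-22-3p, a miR known from heart and muscle growth, was at 5673 and 9872 RPM with OZ and LZ serum and at 4807 in C of ED-MDSC. Its log2 fold change with serum in ED-MDSC was 0.03 ± 0.22 (edgeR, adjusted p = 0.90). The sparse miR-22-5p, with 10 and 34 reads with OZ and LZ serum and 25 in C, gave -1.23 and did not pass (edgeR, adjusted p = 0.096). The hairpins of miR-132 and miR-22 are 283197 bases apart.

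Other miRs known to be induced by stimuli were compared as a list of 5. This list, like the marker lists, was chosen with earlier results of these data known, so its counts are a description. In ED-MDSC, 3 of 4 tested members fell with serum and 0 rose, beside 27.7% of 271 miRs that fell, with a median log2 fold change of -1.05 beside -0.06 for all miRs. miR-146a-5p, an NF-kB target that damps inflammatory signalling, had 924 and 473 reads with OZ and LZ serum against 18773 in C. Its log2 fold change over the 6 ED-MDSC libraries was -4.88 ± 0.43 (edgeR, adjusted p = 4.7e-05). miR-21-5p, induced by growth factors and inflammation, fell by 1.28 ± 0.26 on the log2 scale (edgeR, adjusted p = 0.0045), and miR-155-5p, a miR of activated immune cells, by 0.82 ± 0.20 (edgeR, adjusted p = 0.011). By RPM, without TMM, the fall of miR-155-5p was smaller. It was at 64.9 and 69.0 with OZ and LZ serum against 75.0 to 89.3 in the libraries without serum. miR-22-3p was the fourth. The fifth, miR-134-5p, was too sparse to be tested in ED-MDSC. It was at 5.97 and 4.80 RPM with OZ and LZ serum (15 and 16 reads) and at 2.08 in C (8 reads), so it was higher with serum. In the interaction with stem cell type 1 of 5 members passed, namely miR-146a-5p, beside 8.33% of 300 miRs in either direction and 7.33% lower in ED-MDSC.

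Of a list of 10 miRs linked to REST, 6 were tested in ED-MDSC. Of these miR-203a-3p passed the filter of a mean of 10 reads only through the libraries with serum, and miR-139-5p and miR-204-5p only through those without, so that no count over the list is given. miR-9a-5p, a neuronal miR, rose with serum by 3.86 ± 0.38 on the log2 scale (edgeR, adjusted p = 7.6e-05), where 51.7% of 271 miRs changed in either direction. miR-203a-3p averaged 29.0 reads with serum and 2.25 without. For miR-139-5p these means were 2.50 and 18.25 reads, and for miR-204-5p they were 3.0 and 36.75. miR-29a-3p, at 976 and 969 RPM with OZ and LZ serum and 648 in C, gave -0.15 ± 0.13 with TMM and did not pass. Its RPM was higher with serum, so its direction depended on the scaling.

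Of the 2 untreated cultures in the male table, LD-MDSC had lower levels of every arm than ED-MDSC. miR-132-3p was at 13.5 RPM in LD-MDSC (25 reads) and 274 in ED-MDSC, a ratio of 0.0495 (0.0319 to 0.0735). For miR-212-3p the levels were 4.33 (8 reads) and 133, with a ratio of 0.0325 (0.0140 to 0.0646). For miR-212-5p they were 171 and 1256, with a ratio of 0.136 (0.121 to 0.152), and for miR-132-5p 4.33 and 17.4, with a ratio of 0.248 (0.103 to 0.518). Beyond 2-fold were 36.8% of 133 miRs in this pair, 27.1% lower, and miR-212-3p, miR-132-3p and miR-212-5p held places 1, 3 and 6 from the lowest ratio. The intervals of the 3p arms did not overlap that of miR-212-5p. The 2 cultures differ in the age of the donor as well as the stage of diabetes, and each is 1 library.

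Across all untreated cultures, miR-132-3p had the order ED-MDSC (274 RPM), ND-MDSC (76.1), ZF4-SC of the serum table (49.9), ZF4-SC of the lipid table (36.2), ZL4-SC (27.0) and LD-MDSC (13.5). The Wilson intervals of neighbours in this order did not overlap. Those of the lipid-table ZF4-SC (31.0 to 42.3) and ZL4-SC (23.6 to 30.9) nearly touched. By RPM the order was not the same for every arm. For miR-212-5p, ZF4-SC of the serum table (721 RPM) was above ND-MDSC (623), with a ratio of 1.16 (1.11 to 1.21), but of 1.03 with TMM. LD-MDSC (171 RPM, 153 to 191) and ZL4-SC (163 RPM, 154 to 172) could not be ordered for this arm, since their Wilson intervals overlap. The 2 ZF4-SC libraries, which carry the same label, differed for miR-212-5p by more than counting error, at 224 and 721 RPM in the lipid and serum tables, a ratio of 0.310 (0.289 to 0.333). In the same pair miR-132-3p had a ratio of 0.725, miR-132-5p one of 0.502 and miR-212-3p one of 1.08, and 35.8% of 148 miRs were beyond 2-fold. Libraries of the same label thus differed between tables by as much as 3.22 times.

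Against ND-MDSC of the other table, ED-MDSC was higher in miR-132-3p with a ratio of 3.60 (3.25 to 3.99), in miR-212-3p with 3.42 and in miR-212-5p with 2.02, where 38.8% of 160 miRs were beyond 2-fold. With TMM these were 2.66, 2.53 and 1.49, and miR-132-5p, at 1.23, turned to 0.909. Between the female cells of the serum table, ZF4-SC was above ZL4-SC in miR-212-5p, at 721 and 163 RPM, with a ratio of 4.42 (4.15 to 4.71) and of 2.57 with TMM. The ratio of miR-132-3p was 1.85 and that of miR-212-3p 1.57, but with TMM these were 1.07 and 0.911. miR-132-5p had the highest ratio of the 4 arms, 6.99 (3.42 to 16.1) and 4.06 with TMM, from 53 reads in ZF4-SC and 9 in ZL4-SC. In that pair 37.3% of 153 miRs were beyond 2-fold. When the untreated female cultures (ZF4-SC and ZL4-SC) were tested against the male ones (ED-MDSC, LD-MDSC and ND-MDSC) in edgeR, the log2 fold changes were -1.08 ± 1.08 (SE) for miR-132-3p, -1.17 ± 1.20 for miR-212-3p, -0.24 ± 0.83 for miR-212-5p and -1.08 ± 0.94 for miR-132-5p. No member passed, with edgeR adjusted p of 0.67 to 0.92, and 0.347% of 288 miRs did.

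In ED-MDSC the cluster stayed within 2-fold for cholesterol over its carrier and for each carrier over C, apart from 1 value of the sparse miR-132-5p. Cholesterol was not set against C as a pair. There miR-132-5p was at 35.5 RPM with cholesterol and at 17.4 in C. Cholesterol over cyclodextrin gave 1.01 (0.966 to 1.06) for miR-212-5p, 0.852 (0.765 to 0.95) for miR-132-3p, 1.04 (0.876 to 1.24) for miR-212-3p and 0.828 (0.591 to 1.16) for miR-132-5p, where 0% of 130 miRs were beyond 2-fold. Albumin over C gave 1.05 to 1.84 for the 4 arms, with 4.93% of 142 miRs beyond 2-fold. Cyclodextrin over C gave 1.52 (1.46 to 1.59) for miR-212-5p and 1.42 (1.29 to 1.57) for miR-132-3p. miR-132-5p was the only arm beyond 2-fold there, at 2.46 (1.74 to 3.48), as were 2.16% of 139 miRs. Its level in C rested on 67 reads.

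In the lipid table the reads of ZF4-SC were few. miR-212-5p was at 188 RPM with albumin, 343 with palmitate at 0.5 mM and 276 with palmitate at 1 mM, the last from 29 reads. miR-132-3p was at 17.98, 52.0 and 19.1 RPM in the same order, from 86, 43 and 2 reads. The interval of miR-132-3p for palmitate at 0.5 mM over albumin, 1.96 to 4.21 for a ratio of 2.89, did not include 1, whereas at 1 mM it was 0.126 to 3.95 and no difference could be seen at this depth. miR-212-3p had 30, 2 and 4 reads in these libraries. Among all miRs ranked, 23.6% of 110 were beyond 2-fold at 0.5 mM and 50.5% of 99 at 1 mM.

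With cyclodextrin, the 2 ZF4-SC libraries had miR-212-5p at 113 and 283 RPM (91 and 1348 reads) and miR-132-3p at 18.7 and 45.1 (15 and 215 reads). The second library over the first thus had ratios of 2.50 (2.02 to 3.12) and 2.42 (1.43 to 4.39), so libraries of the same label differed by more than counting error. miR-212-3p and miR-132-5p were at 0 in the first library, which allows up to 3.73 RPM, and at 9.85 and 6.92 in the second. Over all miRs of this pair, 23.6% of 123 were beyond 2-fold. With cholesterol, miR-212-5p was at 236 RPM for 50 mg/dl and 348 for 100 mg/dl, so that the lower dose lay between the cyclodextrin libraries and the higher dose above both. miR-132-3p was at 5.57 RPM for 50 mg/dl (10 reads), below both cyclodextrin libraries, and at 38.6 for 100 mg/dl (64 reads), between them.

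The tests in the lipid table found no change of a member. Cholesterol against cyclodextrin gave log2 fold changes of 0.50 ± 0.53 (SE) for miR-212-5p, -0.64 ± 1.08 for miR-132-3p, -1.10 ± 1.90 for miR-212-3p and 1.44 ± 2.05 for miR-132-5p, with an edgeR adjusted p of 0.99 for each, where 0.913% of 219 miRs passed. Palmitate against albumin gave 0.25 ± 0.66 for miR-212-5p, 0.65 ± 1.37 for miR-132-3p, 0.76 ± 2.46 for miR-212-3p and 0.32 ± 2.84 for miR-132-5p, with 0% past the threshold. Cyclodextrin against C gave -0.45 ± 0.64, -0.45 ± 1.28, -2.30 ± 2.10 and -0.32 ± 2.44 in that order, with 1.37% past it. Albumin against C gave -0.05 ± 0.75 for miR-212-5p, -0.80 ± 1.51 for miR-132-3p, -1.63 ± 2.58 for miR-212-3p and -1.07 ± 2.88 for miR-132-5p, with 0% past it. With standard errors of 0.53 and more, changes of 2-fold could not be detected in the lipid table.

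The arms of each hairpin were read in unequal proportions. On the miR-212 hairpin the 5p arm outnumbered the 3p arm in each of the 22 libraries with reads of both, by 7.25 to 144 times with a median of 15.02. In ED-MDSC the ratio was 7.84 with OZ serum (4.85 to 13.4), 10.2 with LZ serum (7.21 to 14.7), 13.1 with cholesterol, 13.5 with cyclodextrin, 12.3 with albumin and 9.42 in C (8.60 to 10.3). The balance of the arms thus stayed within 2-fold in ED-MDSC, where the levels of these arms were 11.4 to 21.2 times lower with serum than in C. LD-MDSC, with 8 reads of the 3p arm, had a ratio of 39.4. In ZF4-SC it was 68.6 with OZ serum (55.0 to 86.8), 34.7 with LZ serum (29.6 to 41.1) and 34.4 in C (29.0 to 41.1). In ZL4-SC it was 25.4 with OZ serum (20.8 to 31.3), 14.1 with LZ serum and 12.2 in C (9.96 to 15.04). In ND-MDSC it was 11.5 with OZ serum (10.5 to 12.6) and 15.98 in C (14.2 to 18.03). With OZ serum the ratio was thus higher than in C in ZF4-SC and ZL4-SC and lower in ND-MDSC, with intervals that do not overlap, from 1 library each. In ED-MDSC the intervals overlap. The lipid-table C library of ZF4-SC had a ratio of 9.93 (8.07 to 12.3), far from the 34.4 of the serum table.

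On the miR-132 hairpin the 3p arm was the more abundant in 20 of the 21 libraries with reads of miR-132-5p. The ratio of 3p to 5p was 9.05 to 15.7 in ED-MDSC, 3.12 in LD-MDSC, 5.35 and 6.48 in ND-MDSC, 5.43 to 7.27 in ZF4-SC of the serum table and 4.50 to 23.1 in ZL4-SC. The exception was ZF4-SC with cholesterol at 50 mg/dl, with 10 reads of miR-132-3p and 30 of miR-132-5p, a ratio of 0.333 (0.145 to 0.701). That library had 423 reads of miR-212-5p, so that miR-212-5p outnumbered miR-132-3p by 42.3 times. Without it that ratio was 4.59 to 18.5 over 22 libraries. The 3p arms, which share the seed, stood at 1.47 to 2.74 reads of miR-132-3p for each read of miR-212-3p in ED-MDSC, 3.12 in LD-MDSC, 1.59 and 1.95 in ND-MDSC and 1.90 to 3.11 in ZL4-SC. In ZF4-SC it was 2.14 to 3.71 in the serum table and 0.5 to 21.5 over 7 libraries of the lipid table, where the extremes rest on 2 and 43 reads of miR-132-3p and 4 and 2 reads of miR-212-3p.

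**Figure D4:**
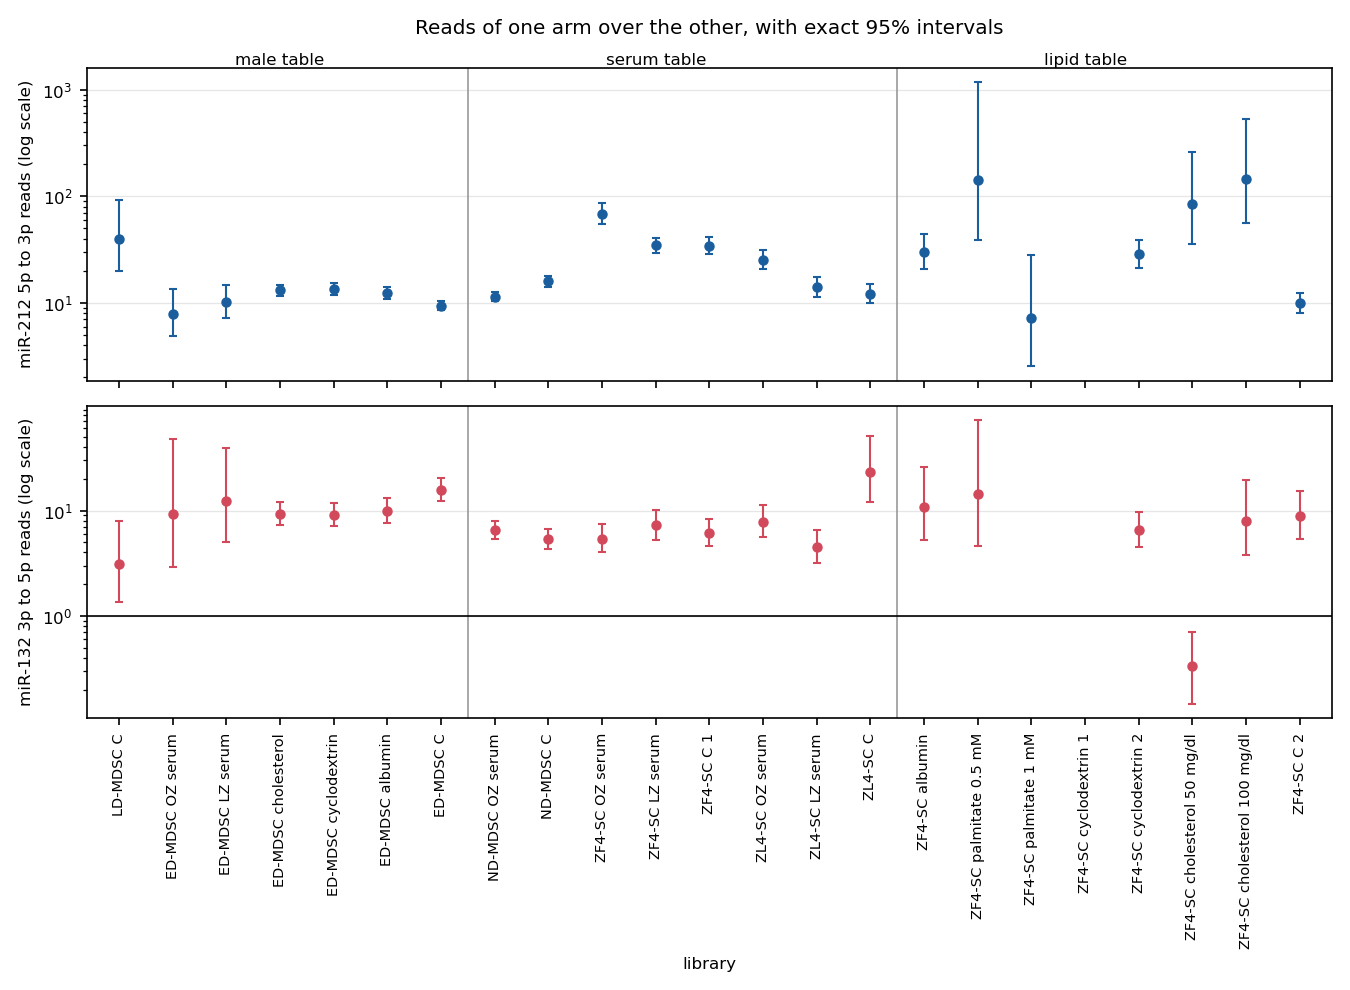
Reads of miR-212-5p over miR-212-3p (top) and of miR-132-3p over miR-132-5p (bottom) in each library, on log scales, with exact 95% intervals that cover counting error. A library without a point had 0 reads of the lesser arm. The upper ratio is 7.84 to 13.5 in ED-MDSC and 34.4 to 68.6 in ZF4-SC of the serum table, and the lower one falls below 1 only with cholesterol at 50 mg/dl.

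The members varied together over the 23 libraries. Spearman's rho was 0.868 between miR-132-3p and miR-212-5p, 0.821 between miR-132-5p and miR-212-5p, 0.715 between the 3p arms and 0.588 between miR-132-5p and miR-212-3p. Without the 6 ED-MDSC libraries these values were 0.730, 0.619, 0.488 and 0.288 over 17 libraries. Such values describe libraries that share tables, cell types and depth, and reads of few counts lower them.

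**Figure D5:**
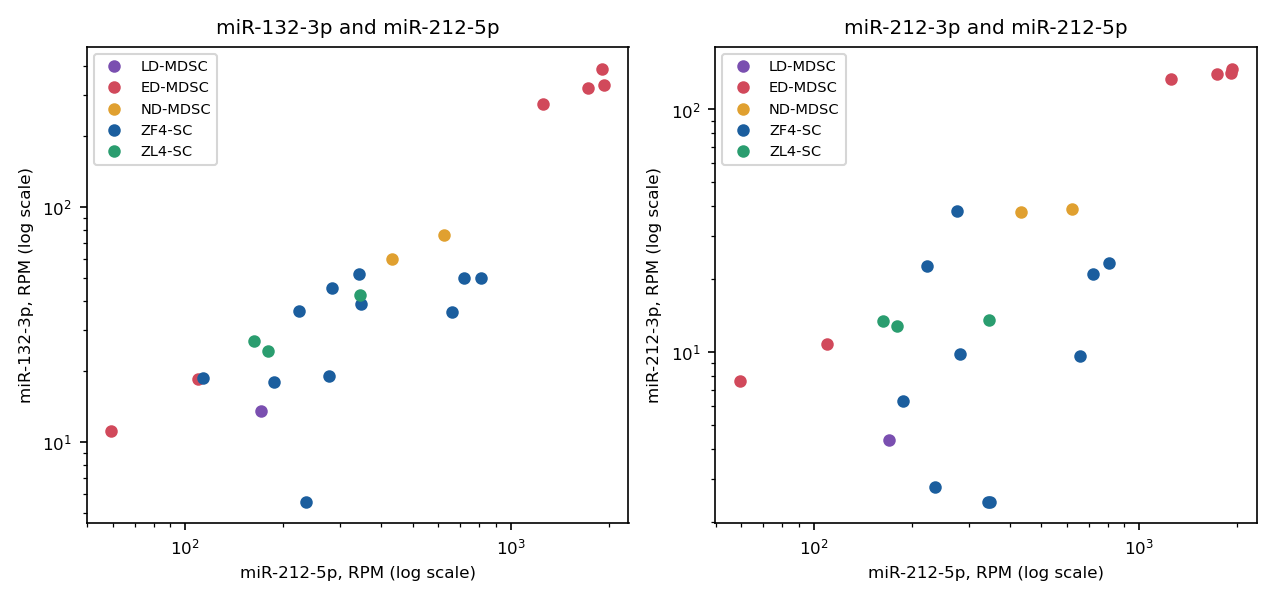
RPM of miR-132-3p (left) and miR-212-3p (right) against miR-212-5p in each library, on log scales, with colours for the 5 stem cell types and libraries at 0 left out. The 4 ED-MDSC libraries without serum lie apart at the upper right, from 1256 to 1934 RPM of miR-212-5p.

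Among 150 other miRs that averaged 100 reads or more, the pattern of miR-132-3p was most like that of miR-214-3p (Spearman's rho 0.758), miR-146b-5p (0.672), miR-204-5p (0.672), miR-199a-3p (0.666) and miR-224-5p (0.664). Most like miR-212-3p were miR-199a-3p (0.876), miR-532-3p (0.864), miR-214-3p (0.833), miR-152-3p (0.760) and miR-101b-3p (0.742). miR-199a-3p and miR-214-3p, which share a transcript and mark mesenchymal cells, appear for both. In ED-MDSC miR-214-3p had 637 and 929 reads with OZ and LZ serum against 5394 in C, and miR-199a-3p had 5133 and 11345 against 27888. Their log2 fold changes with serum were -3.29 ± 0.19 and -2.21 ± 0.24. miR-146b-5p, with 6810 and 8660 reads with OZ and LZ serum against 140482 in C, gave -4.39 ± 0.28. These miRs were picked by likeness over libraries that include ED-MDSC, so their fall there is a description only. Others on the lists differed in how far they moved. miR-204-5p had 5 and 1 reads with OZ and LZ serum and 50 in C. miR-224-5p was at 137 and 142 RPM against 356, and miR-152-3p at 2797 and 3978.5 against 7789. miR-532-3p was at 13.5 and 9.29 RPM with OZ and LZ serum and 12.5 in C, and miR-101b-3p at 407, 392 and 570.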

How the data were processed

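Small RNA of 23 rat MDSC libraries was sequenced by Norgen Biotek. The authors' provider assigned reads to miRs of miRBase release 18. Deposited were 3 tables, 1 for each prefix of the sample names, of counts of reads that had not been normalized. The aligner and the handling of reads with several matches are not given in the sources used here. Groups follow the labels of sex, strain or disease stage and agent. Members and lists were chosen with earlier results of these data known.

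Levels (RPM) are reads divided by the library total, with Wilson 95% intervals. Ratios of 22 pairs of libraries have exact (Clopper-Pearson) 95% intervals from scipy 1.17.1, without a test. Intervals cover counting error only, since reads are not independent molecules. In a pair, the share of miRs beyond 2-fold was counted where the 2 libraries averaged 100 reads or more, and ratios of members are given whatever their reads. Tests used edgeR 4.0.16 (R 4.3.3) by quasi-likelihood, with TMM factors, a minimum mean of 10 reads and Benjamini-Hochberg adjustment to 0.05. Serum tests had the stem cell as a block. Lipid tests used the 8 libraries of the lipid table, with both doses of an agent as replicates, and gave conditions with a lone library the spread of the fit. The scripts were tested on simulated data. Alternatives were DESeq2 1.42.0, other scalings, no filter, no block and leaving out libraries. Both tests centred on ED-MDSC were added after the data were seen.

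The text gives the 4 members with values or ranges in each test, the 5 miRs most like miR-132-3p and miR-212-3p over the libraries by Spearman's rho, and members of the stimulus, REST, neighbour and marker lists. Sequences are RefSeq's (GRCr8).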

Additional observations from a re-analysis of the deposited data

Results flagged for a closer look

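The effect of rat serum differed between ED-MDSC and the other stem cells for all 4 arms, by the interaction term of the edgeR fit described above. The log2 difference, ED-MDSC minus the others, was -4.67 for miR-132-3p, -4.57 for miR-132-5p, -4.23 for miR-212-3p and -4.55 for miR-212-5p. All 4 arms were lower with serum in 2 of 2 ED-MDSC pairs, and 8.33% of 300 miRs passed the same test. The comparison was chosen after the values had been seen and rests on 2 serum libraries and 1 untreated library of ED-MDSC. It cannot be told apart from the count table or from the serum donors.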

How the results depend on the processing

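The fall of miR-132-3p, miR-212-3p and miR-212-5p in ED-MDSC with serum held under all alternatives run. In that test 140 miRs passed, and 109 to 125 when each of its libraries was left out. In the interaction of serum with ED-MDSC 25 miRs passed, 7 with library totals in place of TMM, 42 without a filter, 45 in DESeq2, and 6 (without the ED-MDSC library with OZ serum) to 35 (without ZF4-SC with OZ serum) when 1 library was left out. Of the members in it, miR-132-5p alone lost its call: its log2 difference was -3.96 with library totals (edgeR, adjusted p = 0.084), and -5.16 to -3.98 when 1 library was left out. The interaction could not be fitted without C of ED-MDSC, its only untreated library there. The cause of these changes was not tested.

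The planned tests called few miRs, and no member passed in any of their alternatives. Without a filter 5 miRs passed with OZ serum against C, 1 with LZ serum against C, 2 with OZ against LZ serum, 6 for cholesterol, 20 for palmitate, 13 for cyclodextrin and 7 for female against male cells, where 0, 0, 1, 2, 0, 3 and 1 had passed. DESeq2 called 4, 1, 0, 7, 16, 15 and 21 in that order. For OZ against LZ serum 0 passed with DESeq2 size factors or library totals. For female against male cells 0 passed with ZF4-SC of the lipid table. When 1 stem cell or library was left out, the counts were 0 to 3 for LZ serum against C and 1 to 9 for OZ against LZ serum (highest without ED-MDSC), 0 (without cholesterol at 50 mg/dl) to 7 for cholesterol, 2 to 30 for cyclodextrin (both highest without the second cyclodextrin library) and 0 to 2 for female against male cells. The serum tests paired libraries by stem cell. With no replicate block, 0 miRs passed in each of the 3 serum tests, against 1 for OZ against LZ serum with it. The cause was not tested.

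Uncalled log2 fold changes of members changed sign. With OZ serum against C, leaving out 1 stem cell gave -1.43 to 0.20 for miR-132-3p, -1.24 to 0.59 for miR-132-5p and -1.35 to 0.41 for miR-212-5p, and with LZ serum against C -2.13 to 0.53 for miR-132-5p. OZ against LZ serum gave -0.33 to 0.51 for miR-132-3p, -0.27 to 0.33 for miR-132-5p and -0.33 to 0.68 for miR-212-5p, and with library totals -0.13, -0.10 and -0.083. Cholesterol against cyclodextrin gave -2.48 to 0.17 for miR-132-3p, -2.01 to 5.23 for miR-212-3p and -0.079 to 1.32 for miR-212-5p. Palmitate against albumin gave -0.59 to 1.23 for miR-132-3p, -5.46 to 0.80 for miR-132-5p, -1.65 to 1.92 for miR-212-3p and -0.12 to 0.57 for miR-212-5p. Of these, 5.23 (cyclodextrin left with 0 reads of miR-212-3p) and -5.46 (palmitate left with 0 reads of miR-132-5p) are fitted over a group at 0 reads and are no bound. Cyclodextrin against C gave -1.21 to 0.27 for miR-132-3p, -0.26 to 0.70 for miR-132-5p and -1.24 to 0.29 for miR-212-5p. Albumin against C gave 0.11 for miR-212-5p without a filter. Female against male cells gave -1.63 to 0.076 for miR-132-3p and -1.10 to 0.33 for miR-212-5p.

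Over 22 pairs the members had 85 single-library ratios with reads in both libraries, whatever their number. Of these 34 were beyond 2-fold, 29 with TMM sizes and 38 with raw counts, and 49 were beyond 1.5-fold. In the pairs with a share given above, 0% to 50.6% of all miRs that averaged 100 reads or more were beyond 2-fold. The members' ratios were not filtered in that way. With raw counts, which ignore depth, ratios of members that averaged under 100 reads, which are no calls, turned for palmitate over albumin, to 0.133 for miR-212-3p at 1 mM, and at 0.5 mM to 0.5 for miR-132-3p and 0.375 for miR-132-5p. Depth limits miR-132-5p and miR-212-3p most, and the lipid table as a whole.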
